A study of Neotoma lepida with 16 samples.

Results

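The proteasome is the barrel-shaped protease that degrades most short-lived and damaged proteins of a cell after they have been tagged with ubiquitin. Its core particle stacks rings of alpha subunits, which gate the entrance, around rings of beta subunits, some of which carry the proteolytic sites. A regulatory particle caps the core: its ATPase subunits unfold the substrate and thread it inwards, and its non-ATPase subunits bind ubiquitin, remove it and hold the particle together, while separate activators can take its place.

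Proteasome genes were taken by name from a rat array hybridised with liver RNA of desert woodrats (Neotoma lepida), as every gene whose symbol starts with Psma (core alpha), Psmb (core beta), Psmc (ATPase), Psmd (non-ATPase), Psme (activator) or Psmf (inhibitor). The rule found 50 probes for 42 genes, among 41012 probes for 35561 genes or transcripts on the array, and no probe was named Psmf. A gene was tested when 4 or more of the 16 arrays showed 1 of its probes well above background in the animal's red channel, which left 41 of the 42 genes, against 26496 genes tested in all. The gene left out was Psmb10, an inducible catalytic subunit, whose only probe was well above background on 0 of 16 arrays. Of the 41 genes, Psmc3ip matched by name only. It codes for a cofactor of meiotic recombination that binds the ATPase Psmc3 in other species and is no part of the proteasome, so that 40 subunits or subunit-like proteins remained.

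The animals were wild-caught woodrats of 2 populations, Mojave and Great Basin, acclimated to captivity on rabbit chow for 3 months. They were then offered chow with increasing amounts of creosote bush or juniper for 5 days. The question was how the liver of each population responds to plants with distinct secondary compounds. The groups were Mojave animals on creosote (4 males), Mojave animals on juniper (2 males and 2 females), Great Basin animals on creosote (2 males and 2 females) and Great Basin animals on juniper (2 males and 2 females). Ages were not used here. No group stayed on chow alone, so "lower on creosote" and "higher on juniper" describe the same difference and cannot be told apart. The words "fell" and "fall" below mean only lower on creosote than on juniper, not a change from a level before the diets. Each animal had 1 array, on which its RNA (red dye) was set against an equimolar pool of all 16 livers (green dye). Values are log2 ratios of animal over pool, normalised within each array. After that step 0 is the centre of the array's genes of like brightness, not a gene's own level in the pool. A gene can therefore lie on 1 side of 0 in all 16 animals: the median of Ubb and Rps27a lay between 0.32 and 0.89. Differences between groups are read here, not distances from 0. Animals are given in the order of their replicate numbers, by which they are named where 1 animal matters. The labels name separate animals, so the spread within a group is that between animals.

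Over the 16 arrays the share of probes well above background lay between 45.6% and 75.9%, and it was lowest on the 4 arrays of slide 1. Every slide held 1 animal of each group, and each group kept the same position on all 4 slides. Great Basin creosote sat at position 1, Mojave creosote at 2, Mojave juniper at 3 and Great Basin juniper at 4. Position therefore cannot be told apart from diet, from population or from their interaction. The hepatocyte markers Ambp, Fgb, Ahsg and Alb were each well above background on 16 of 16 arrays, but so were the lymphocyte markers Cd3d and Gzmb. Those 4 hepatocyte markers had a mean log2 brightness between 15.1 and 17.9. Apoc3, Serpina1 and Ttr, also hepatocyte markers, lay between 6.8 and 7.9, and Cd3d at 8.3. The tissue is therefore taken from the labels. Of 8 measured hepatocyte markers, 4 were higher on creosote in Mojave and 3 in Great Basin, against 3.83% and 2.07% of all genes. Their median per animal lay between 0.25 and 0.96 in Mojave creosote and between -0.12 and 0.08 in Mojave juniper. It lay between 0.37 and 0.91 in Great Basin creosote and between -0.002 and 0.14 in Great Basin juniper. Of 7 Kupffer cell markers, 1 (Cd14) was lower on creosote in Great Basin. Of 6 lymphocyte and 3 neutrophil markers 0 were called in either population by limma. Over all genes 5.73% were called lower in Mojave and 1.92% in Great Basin. Of 4 stellate cell markers, 1 (Rgs5) was higher on creosote in Great Basin, and no cholangiocyte marker was kept. In bulk liver, fewer cells of a type and less RNA per cell cannot be told apart, and the part of these markers in the proteasome results was not tested.

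Proteasome genes were lower on creosote than on juniper in both populations. In Mojave animals 25 of the 41 genes were lower on creosote, 1 was higher (Psmc3ip) and 15 were not called (limma over all genes, Benjamini-Hochberg adjusted p under 0.05). Over all 26496 genes tested, 5.73% were called lower and 3.83% higher in the same comparison. In Great Basin animals 29 of the 41 were lower, 1 was higher (again Psmc3ip) and 11 were not called, against 1.92% of all genes called lower and 2.07% called higher. The median difference over the 41 genes was -0.53 in Mojave and -0.67 in Great Basin on the log2 scale, where the median over all genes tested was -0.0039 and -0.0056. The genes called lower were between 1.30-fold and 2.81-fold lower in Mojave, and between 1.35-fold and 2.13-fold lower in Great Basin. Among male animals alone, the genes called lower were 14 in Mojave and 9 in Great Basin, with medians of -0.47 and -0.62, where 2.42% and 0.238% of all genes were called lower.

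The difference showed in most subunits and in every animal. Of the 40 subunits, 34 had both creosote group means below both juniper group means. The number of subunits with a negative ratio was 34, 32, 37 and 29 in the Mojave creosote animals, and 9, 7, 9 and 8 in the Mojave juniper animals. It was 33, 25, 34 and 37 in the Great Basin creosote animals, and 17, 15, 4 and 7 in the Great Basin juniper animals. The lower count of 25 belongs to Great Basin creosote animal 2, with values for only 33 of the 40 subunits, because spots marked as outliers by the scanner software were left out. The median log2 ratio over the 40 subunits was -0.37 ± 0.08 in Mojave creosote, 0.14 ± 0.04 in Mojave juniper, -0.49 ± 0.04 in Great Basin creosote and 0.09 ± 0.05 in Great Basin juniper (SD over animals, n = 4 each). No creosote animal reached the lowest juniper animal in either population.

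Without any model, the animals with a value were compared by their order. In Mojave 24 members had all creosote animals below all juniper animals, against 9.39% of all genes. In Great Basin 30 members did, against 5.43%. The opposite order, all creosote animals above all juniper animals, was found for 0 members in Mojave, against 7.35% of all genes, and for 1 in Great Basin (Psmc3ip), against 5.05%. With both populations together, the 8 creosote animals lay below the 8 juniper animals for 20 members, against 1.49% of all genes, and above them for 0 members, against 1.22%. The 20 comprised 5 alpha subunits, 3 beta subunits, 2 ATPases, 9 non-ATPase subunits and 1 activator. A total of 23 members were called lower in both populations, against 300 of all genes (1.13%). Compared within each slide, the median difference over the 41 genes was between -0.61 and -0.45 on the 4 slides in Mojave and between -0.67 and -0.52 in Great Basin. The probes of the proteasome are bright, and bright genes were called more often. Among the 1039 genes with a mean log2 brightness of 13 or more (a limit chosen after seeing the data), 16.4% were called lower in Mojave and 12.5% in Great Basin. Of the 29 members in that range, 22 and 27 were called lower.

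**Figure D1:**
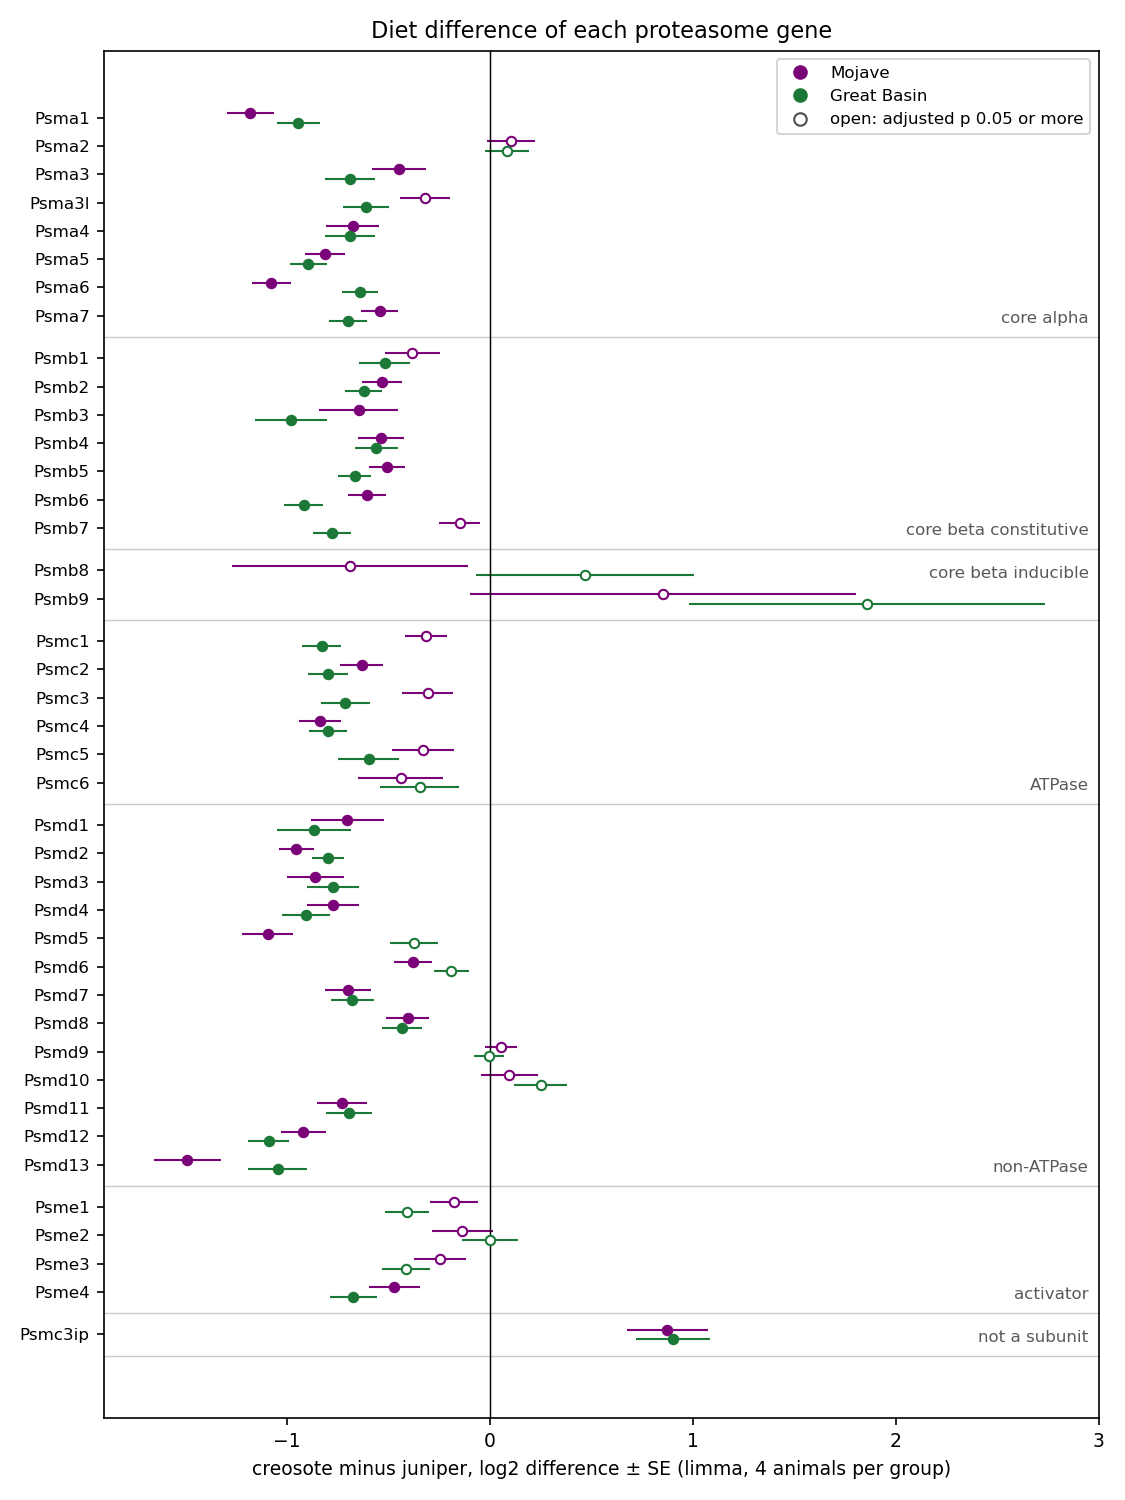
Difference between creosote and juniper for each of the 41 proteasome genes, grouped by role, as a log2 difference with its standard error, in Mojave (purple) and Great Basin (green). Filled points passed the adjusted p threshold of 0.05; every filled point lies left of 0 except those of Psmc3ip, which lie right of it in both populations.

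Most alpha subunits of the core fell. In Mojave 6 of 8 were lower on creosote, with a class median of -0.61, and in Great Basin 7 of 8, with a class median of -0.69. Psma1, an alpha ring subunit, had log2 ratios of -0.86, -0.89, -0.85 and -0.73 in Mojave creosote animals, against 0.30, 0.13, 0.34 and 0.33 in Mojave juniper animals. The Great Basin animals had -0.47, -0.84, -0.98 and -0.95 on creosote, against 0.07, -0.03, 0.06 and 0.43 on juniper. The groups were far apart in both populations: Psma1 was 2.27-fold lower on creosote in Mojave, with a log2 difference of -1.18 ± 0.12 (SE, limma adjusted p = 4.5e-05), and 1.92-fold lower in Great Basin, with -0.94 ± 0.11 (adjusted p = 0.000185).

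Psma5, another alpha subunit, had -0.59, -0.55, -0.87 and -0.60 in Mojave creosote animals, against 0.07, 0.16, 0.19 and 0.13 in Mojave juniper animals. Among Great Basin animals it had -0.89, -0.57, -0.97 and -0.93 on creosote, against -0.02, 0.17, 0.02 and 0.05 on juniper. All creosote animals were again below all juniper animals, with differences of -0.81 ± 0.10 in Mojave (limma adjusted p = 0.000289) and -0.89 ± 0.09 in Great Basin (adjusted p = 8.18e-05). Psma6 had -0.93, -0.80, -0.85 and -0.60 in Mojave creosote animals, against 0.22, 0.21, 0.25 and 0.25 in Mojave juniper animals, where the juniper animals were nearly identical. In Great Basin Psma6 had -0.39, -0.55, -0.49 and -0.86 on creosote, against 0.02, -0.02, 0.11 and 0.15 on juniper. Its fall was -1.08 ± 0.10 in Mojave and -0.64 ± 0.09 in Great Basin (limma adjusted p = 2.19e-05 and 0.000759). The difference between these falls was -0.44 ± 0.13 and did not pass the test (adjusted p = 0.166).

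Psma4 and Psma7 were lower in both populations, at -0.68 and -0.54 in Mojave and -0.69 and -0.70 in Great Basin. Psma3 and its near copy Psma3l, whose woodrat transcripts may not be measured separately by these probes, were both highest, among Mojave creosote animals, in animal 1. In that animal Psma3 was at -0.0039 and Psma3l at 0.19, while the other Mojave creosote animals had -0.76, -0.56 and -0.57 for Psma3 and -0.52, -0.34 and -0.44 for Psma3l. Psma3 was called in Mojave at -0.45 (limma adjusted p = 0.0457) but lost the call in 14 of the 16 fits that each left out 1 animal. Psma3l was not called in Mojave at -0.32 (adjusted p = 0.129), and was at -0.48 without that animal (adjusted p = 0.00126). In Great Basin Psma3 and Psma3l were called at -0.69 and -0.61. Psma2 was the only alpha subunit with no called difference in either population, at 0.10 ± 0.12 in Mojave and 0.09 ± 0.11 in Great Basin. Its probe was dim, well above background on 12 of 16 arrays in the animal channel and on 1 of 16 in the pool channel.

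The constitutive beta subunits fell as the alpha subunits did, with 5 of 7 called lower in Mojave (median -0.53) and 7 of 7 in Great Basin (median -0.67). Psmb5, the chymotrypsin-like catalytic subunit, had -0.41, -0.23, -0.40 and -0.19 in Mojave creosote animals, against 0.07, 0.27, 0.33 and 0.17 in Mojave juniper animals. Its Great Basin ratios were -0.59, -0.34, -0.44 and -0.46 on creosote, against 0.07, 0.29, 0.24 and 0.23 on juniper. No creosote animal overlapped the juniper animals, and the differences were -0.51 ± 0.09 in Mojave (limma adjusted p = 0.00218) and -0.67 ± 0.08 in Great Basin (adjusted p = 0.000347).

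Psmb6, the caspase-like catalytic subunit, had -0.33, -0.53, -0.62 and -0.32 in Mojave creosote animals, against 0.14, 0.23, 0.06 and 0.21 in Mojave juniper animals. In Great Basin it had -0.72, -0.47, -0.66 and -0.62 on creosote, against 0.41, 0.30 and 0.19 in the 3 juniper animals with a value. The groups were separate in both populations, with differences of -0.61 ± 0.10 in Mojave (limma adjusted p = 0.00159) and -0.92 ± 0.10 in Great Basin (adjusted p = 0.000162). Psmb7, the trypsin-like catalytic subunit, had -0.35, -0.0014, -0.42 and -0.10 in Mojave creosote animals, against -0.06, 0.01, -0.04 and -0.06 in Mojave juniper animals. In Great Basin it had -0.70, -0.64 and -0.49 in the 3 creosote animals with a value, against 0.10, 0.32, 0.15 and 0.06 on juniper. The Mojave groups overlapped and the Great Basin groups did not. The difference was -0.15 ± 0.10 in Mojave (limma adjusted p = 0.452) and -0.78 ± 0.10 in Great Basin (adjusted p = 0.000418). The difference between the populations' falls was 0.63 ± 0.14, with a 95% interval from 0.33 to 0.93 before any adjustment over genes, and did not pass the test over all genes (adjusted p = 0.0987).

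Psmb2, Psmb3 and Psmb4, non-catalytic beta subunits, were called lower in both populations, between -0.65 and -0.53 in Mojave and between -0.98 and -0.56 in Great Basin. Psmb1, also non-catalytic, was called in Great Basin at -0.52 and not in Mojave at -0.38 (limma adjusted p = 0.0927). The Mojave call of Psmb3 (adjusted p = 0.0466) was lost in 13 of the 16 fits that each left out 1 animal, and the Great Basin call of Psmb1 in 6.

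The inducible catalytic subunits showed no called difference. Psmb8 and Psmb9 replace Psmb5 and Psmb6 in the immunoproteasome, the form that interferon induces and that produces peptides for antigen presentation. Both varied widely between animals of 1 group. Psmb9 had -2.58, -2.30, -2.46 and 1.17 in Mojave creosote animals, against -2.54, -2.52, -2.77 and 0.24 in Mojave juniper animals. The Great Basin ratios were -0.41, 1.80, -0.79 and 0.72 on creosote, against -0.29, -0.32, -2.73 and -2.78 on juniper. Psmb9 thus fell into a low set of 8 animals, between -2.78 and -2.30, and a high set of 8, between -0.79 and 1.80, with none between. Of the Great Basin creosote animals 4 of 4 were in the high set, as were 2 of 4 Great Basin juniper animals, 1 of 4 Mojave creosote animals and 1 of 4 Mojave juniper animals.

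The probe of Psmb9 was well above background on all 16 arrays. Its diet difference was 0.85 ± 0.95 in Mojave (limma adjusted p = 0.685) and 1.86 ± 0.88 in Great Basin (adjusted p = 0.299), with a 95% interval from -0.01 to 3.73 in Great Basin. Within the 4 slides, the Great Basin creosote animal was above the juniper animal by 1.01 to 2.32. For Psmb8 these Great Basin differences ran from 0.17 to 0.94. In Mojave the within-slide differences ran from -0.04 to 0.93 for Psmb9 and from -1.93 to 0.72 for Psmb8. The animals so compared share a slide and are not otherwise paired. Psmb8 had -1.10, -0.27, -1.06 and 0.79 in Mojave creosote animals, against 0.82, -0.99, -0.19 and 0.53 in Mojave juniper animals. For Great Basin animals the ratios were 1.10, 0.34, -1.24 and -0.39 on creosote, against -0.56, -0.60, 0.54 and -1.43 on juniper. Its groups overlapped in both populations, with differences of -0.69 ± 0.58 in Mojave (limma adjusted p = 0.56) and 0.47 ± 0.54 in Great Basin (adjusted p = 0.729).

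The SD within groups was 1.47 for Psmb9 and 0.88 for Psmb8 on the log2 scale, and between 0.09 and 0.31, with a median of 0.17, for the other 38 subunits. The 95% interval of the diet difference of Psmb8 ran from -1.93 to 0.55 in Mojave and from -0.68 to 1.61 in Great Basin, and so holds the values found for Psmb5. Wide standard errors were also found for B2m, the light chain of the antigen-presenting complex, and for Tap1, a peptide transporter, both named after their values were seen. Their standard errors for the Mojave diet difference were 0.48 and 0.40, against a median of 0.10 over all genes. The other measured peptide loading genes were mixed: 0.28 for Tap2 and 0.32 for Tapbp, but 0.07 for Calr and 0.09 for Arts1.

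**Figure D2:**
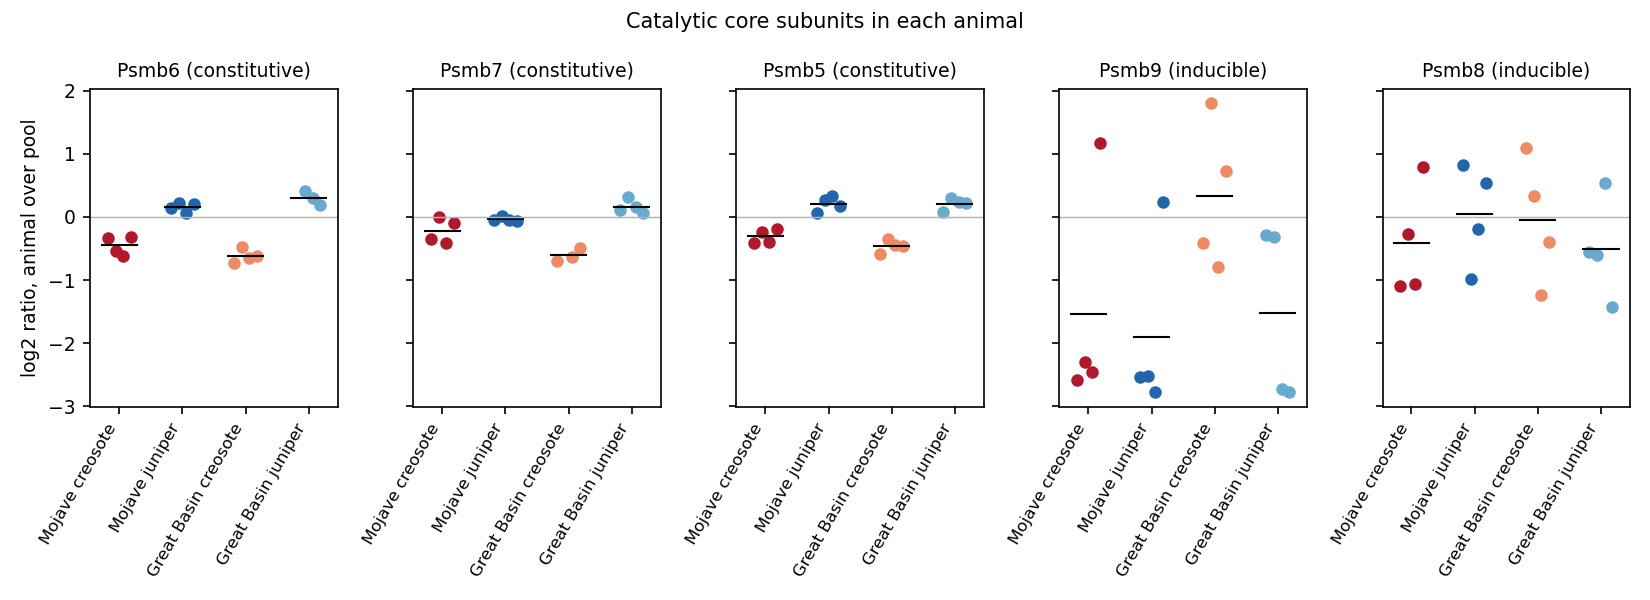
Log2 ratio of animal over pool for the catalytic core subunits in each animal; points are animals and black lines are group means, over 4 animals in each group except 3 for Psmb7 in Great Basin creosote and 3 for Psmb6 in Great Basin juniper. The constitutive subunits Psmb6 and Psmb5 separate creosote from juniper in both populations, whereas Psmb9 splits into a low set (-2.78 to -2.30) and a high set (-0.79 to 1.80) that both hold creosote and juniper animals.

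All 6 ATPases were lower on creosote in value, and 2 were called in Mojave (class median -0.39) and 5 in Great Basin (class median -0.75). Psmc4 had -0.73, -0.52, -0.77 and -0.38 in Mojave creosote animals, against 0.17, 0.35, 0.04 and 0.23 in Mojave juniper animals. The Great Basin animals had -0.64, -0.53, -0.66 and -0.90 on creosote, against 0.19, 0.11, 0.07 and 0.10 on juniper. Creosote and juniper animals did not overlap, and the fall was of like size in both populations, at -0.84 ± 0.10 in Mojave (limma adjusted p = 0.000307) and -0.80 ± 0.10 in Great Basin (adjusted p = 0.000311). A further probe of Psmc4 gave -0.69 and -0.89.

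Psmc2 had -0.36, -0.43, -0.70 and -0.39 in Mojave creosote animals, against 0.01, 0.06, 0.25 and 0.28 in Mojave juniper animals. Among Great Basin animals it had -0.67, -0.68, -0.95 and -0.65 on creosote, against -0.04, -0.01, 0.06 and 0.24 on juniper. The groups were again separate, with differences of -0.63 ± 0.11 and -0.80 ± 0.10 (limma adjusted p = 0.00182 and 0.000347). Psmc1 had -0.22, -0.30, -0.51 and -0.59 in Mojave creosote animals, against 0.04, -0.32, -0.13 and -0.19 in Mojave juniper animals. Its Great Basin ratios were -0.61, -0.70, -0.74 and -0.76 on creosote, against -0.06, 0.07, 0.18 and 0.32 on juniper. Only the Great Basin groups were separate, and the differences were -0.31 ± 0.10 in Mojave (limma adjusted p = 0.0686) and -0.83 ± 0.09 in Great Basin (adjusted p = 0.000203). The difference between these falls was 0.52 ± 0.14 and did not pass the test (adjusted p = 0.137).

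Psmc3 and Psmc5 were called in Great Basin only, at -0.71 and -0.60, with -0.31 and -0.33 in Mojave. Both had values on 13 of 16 arrays. Psmc3 had a value in only 2 Great Basin creosote animals, -0.36 and -0.30, so its Great Basin call rests on those 2. The Psmc3 call was lost without Great Basin creosote animal 1, and the Psmc5 call (limma adjusted p = 0.0485) was lost in 12 of the 16 fits that each left out 1 animal. Psmc6 was not called, at -0.44 ± 0.21 in Mojave and -0.35 ± 0.19 in Great Basin. Mojave creosote animal 1, also high for Psma3, and Great Basin creosote animal 1 had Psmc6 ratios of 0.36 and 0.39, while the other creosote animals had between -0.66 and -0.09. A dimmer probe of Psmc6 gave -0.38 in Mojave and -0.49 in Great Basin, and was called in Great Basin (adjusted p = 0.0473).

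The non-ATPase subunits held the largest falls. Of 13 genes named Psmd, 11 were lower on creosote in Mojave (class median -0.73) and 9 in Great Basin (class median -0.69). Psmd13, a subunit of the lid of the regulatory particle, had the largest fall of the 41 genes in Mojave. It had -1.25, -1.10 and -1.14 in the 3 Mojave creosote animals with a value, against 0.14, 0.40, 0.14 and 0.29 in Mojave juniper animals. In Great Basin it had -0.63, -0.70 and -1.45 in the 3 creosote animals with a value, against 0.08, 0.12, 0.04 and 0.36 on juniper. The groups were separate in both populations, and Psmd13 was 2.81-fold lower on creosote in Mojave, at -1.49 ± 0.16 (limma adjusted p = 0.000286), and 2.07-fold lower in Great Basin, at -1.05 ± 0.15 (adjusted p = 0.00131). Psmd13 was chosen for its size after its values were seen.

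Psmd2, a large scaffold subunit of the base that docks ubiquitin shuttles, had -1.03, -0.78, -0.90 and -0.71 in Mojave creosote animals, against 0.05, 0.03, 0.09 and 0.09 in Mojave juniper animals. The Great Basin ratios were -0.82, -0.76, -0.87 and -1.07 on creosote, against -0.20, -0.06, -0.10 and 0.04 on juniper. The creosote animals all lay far below the juniper animals, with differences of -0.96 ± 0.09 in Mojave (limma adjusted p = 2.3e-05) and -0.80 ± 0.08 in Great Basin (adjusted p = 7.27e-05). Psmd12, a lid subunit, had -0.63, -0.96, -1.04 and -0.65 in Mojave creosote animals, against 0.14, 0.25 and 0.21 in the 3 Mojave juniper animals with a value. In Great Basin it had -1.21, -0.98 and -0.94 in the 3 creosote animals with a value, against -0.03, 0.19, 0.01 and -0.08 on juniper. It showed the largest fall of the 41 genes in Great Basin, at -1.09 ± 0.10 (limma adjusted p = 8.18e-05), with -0.92 ± 0.11 in Mojave (adjusted p = 0.000377).

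The other scaffold and receptor subunits followed the same course. Psmd1, the second large scaffold of the base, was at -0.70 ± 0.18 in Mojave and -0.87 ± 0.18 in Great Basin (limma adjusted p = 0.0267 and 0.0176). It had -0.38, 0.05, -0.31 and -0.50 in Mojave creosote animals, against 0.20, 0.20, 0.60 and 0.74 in Mojave juniper animals. In Great Basin it had 0.05, -0.19 and -0.44 in the 3 creosote animals with a value, against 0.51, 0.62 and 0.87 in the 3 juniper animals with a value. The Mojave call was lost in 5 of the 16 fits that each left out 1 animal, with the replicate number as a block and without slide 1, and the Great Basin call without Great Basin juniper animal 4 and without slide 1. Its groups did not overlap, but the other Psmd1 probe, about as bright, gave -0.49 in Mojave and -0.22 in Great Basin, and only the Mojave value was called (adjusted p = 0.0196 and 0.356). Psmd4, a ubiquitin receptor, was at -0.78 in Mojave and -0.91 in Great Basin, and the lid subunits Psmd3, Psmd8 and Psmd11 lay between -0.86 and -0.41 in Mojave and between -0.77 and -0.43 in Great Basin, all called. The Psmd8 call was lost in 3 of the 16 fits that each left out 1 animal in Mojave, and in 3 in Great Basin. Psmd6, a lid subunit, was called in Mojave at -0.38 and not in Great Basin at -0.19 (adjusted p = 0.279).

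Psmd7, the lid subunit that pairs with the deubiquitinating enzyme of the particle, was measured by 3 probes. The brightest gave -0.46, -0.49, -0.70 and -0.58 in Mojave creosote animals, against -0.04, 0.09, 0.19 and 0.12 in Mojave juniper animals. In Great Basin it gave -0.47, -0.76, -0.70 and -0.94 on creosote, against -0.35, 0.01, 0.08 and 0.10 on juniper. Its groups were separate, and its difference was -0.70 ± 0.11 in Mojave and -0.68 ± 0.10 in Great Basin (limma adjusted p = 0.00156 and 0.00169). The next probe gave -1.21 in Mojave (adjusted p = 0.000413) and -0.46 in Great Basin (adjusted p = 0.107). The third, a dim probe, gave 0.13 and 0.05 (adjusted p = 0.363 and 0.778). Psma6 also had a dim further probe, at -0.03 in Mojave and 0.14 in Great Basin (adjusted p = 0.877 and 0.337), where its bright probe fell. The dim further probe of Psme4 gave -0.30 and -0.18 and was not called. The offset of 50 added to the signals draws the ratios of dim probes towards 0, and the part of probe brightness in these differences between probes was not tested.

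Psmd5, Psmd9 and Psmd10 bear subunit names but are known in mammals as chaperones that assemble the base and leave the finished particle. Apart from them, 10 of 10 Psmd genes were lower on creosote in Mojave (median -0.75) and 9 of 10 in Great Basin (median -0.79). Psmd9 was at 0.05 ± 0.08 in Mojave and -0.0041 ± 0.07 in Great Basin, and Psmd10 at 0.09 ± 0.14 and 0.25 ± 0.13, none of them called. The probes of Psmd9 and Psmd10 were dim, with a mean log2 brightness of 6.4 and 7.6, as was that of Psma2 at 6.2. A smaller offset of 16 left Psma2, Psmd9 and Psmd10 between 0.08 and 0.18 in Mojave and between -0.04 and 0.30 in Great Basin.

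Psmd5 was the only assembly chaperone of the base with a called difference. It had -1.04, -0.89, -0.78 and -0.63 in Mojave creosote animals, against 0.16, 0.15, 0.35 and 0.50 in Mojave juniper animals. For Great Basin animals the ratios were -0.51, -0.47, -0.41 and -0.57 on creosote, against 0.08, -0.41, 0.08 and -0.20 on juniper. The Mojave groups were far apart, while the Great Basin groups met at juniper animal 2, the lowest on juniper. Psmd5 was 2.14-fold lower on creosote in Mojave, at -1.10 ± 0.13 (limma adjusted p = 0.000194), and was not called in Great Basin at -0.38 ± 0.12 (adjusted p = 0.0903). It was called in Great Basin, at -0.50, without that animal (adjusted p = 0.0188). The difference between the populations' falls was -0.72 ± 0.17, with a 95% interval from -1.09 to -0.35 before adjustment over genes, and did not pass the test over all genes (adjusted p = 0.104).

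Of the 4 activators, 1 was lower on creosote in each population, and the class medians were -0.21 in Mojave and -0.41 in Great Basin. Psme4, a large single-chain activator known for its part in the degradation of acetylated histones, had -0.36, -0.88, -0.33 and -0.25 in Mojave creosote animals, against -0.06, -0.11, 0.13 and -0.06 in Mojave juniper animals. The Great Basin animals had -0.69, -0.58, -0.74 and -0.84 on creosote, against -0.16, -0.11, 0.02 and 0.11 on juniper. Its groups were separate in both populations, with differences of -0.47 ± 0.13 (limma adjusted p = 0.0272) and -0.67 ± 0.12 (adjusted p = 0.00355). The Mojave call was lost without Mojave juniper animal 1 or 3, and the mean over its probes was called in neither population.

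Psme1 and Psme2 form the interferon-inducible activator ring that is often paired with the immunoproteasome. Psme1 had -0.03, 0.29, -0.05 and 0.22 in Mojave creosote animals, against 0.25, 0.17, 0.20 and 0.13 in Mojave juniper animals. Among Great Basin animals it had -0.40, 0.16, -0.41 and -0.50 on creosote, against 0.03, 0.02, 0.25 and 0.19 on juniper. Great Basin creosote animal 2, at 0.16, lay within the juniper range and far from the other creosote animals. The difference of Psme1 was -0.18 ± 0.12 in Mojave (limma adjusted p = 0.432) and -0.41 ± 0.11 in Great Basin, where it missed the threshold narrowly (adjusted p = 0.05001). Without that animal it was -0.54 (adjusted p = 0.00267).

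Psme2 had 0.11, 0.28, -0.22 and 0.31 in Mojave creosote animals, against 0.51, -0.04 and -0.12 in the 3 Mojave juniper animals with a value. Its Great Basin ratios were -0.20, 0.07, -0.31 and -0.17 on creosote, against -0.22, -0.07, 0.0081 and -0.33 on juniper. Its groups overlapped in both populations, and the 95% interval of its difference ran from -0.46 to 0.19 in Mojave and from -0.29 to 0.29 in Great Basin. Psme3, which forms a nuclear activator ring of its own, had -0.08, -0.06, -0.45 and -0.34 in Mojave creosote animals, against -0.06, -0.06, 0.13 and -0.02 in Mojave juniper animals. The Great Basin ratios were -0.36, -0.75, -0.51 and -0.36 on creosote, against -0.18, -0.31, 0.06 and 0.10 on juniper. All Great Basin creosote animals were below the juniper animals, but the difference of -0.41 ± 0.12 was not called (limma adjusted p = 0.0663), and neither was the -0.24 ± 0.13 in Mojave (adjusted p = 0.288).

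**Figure D3:**
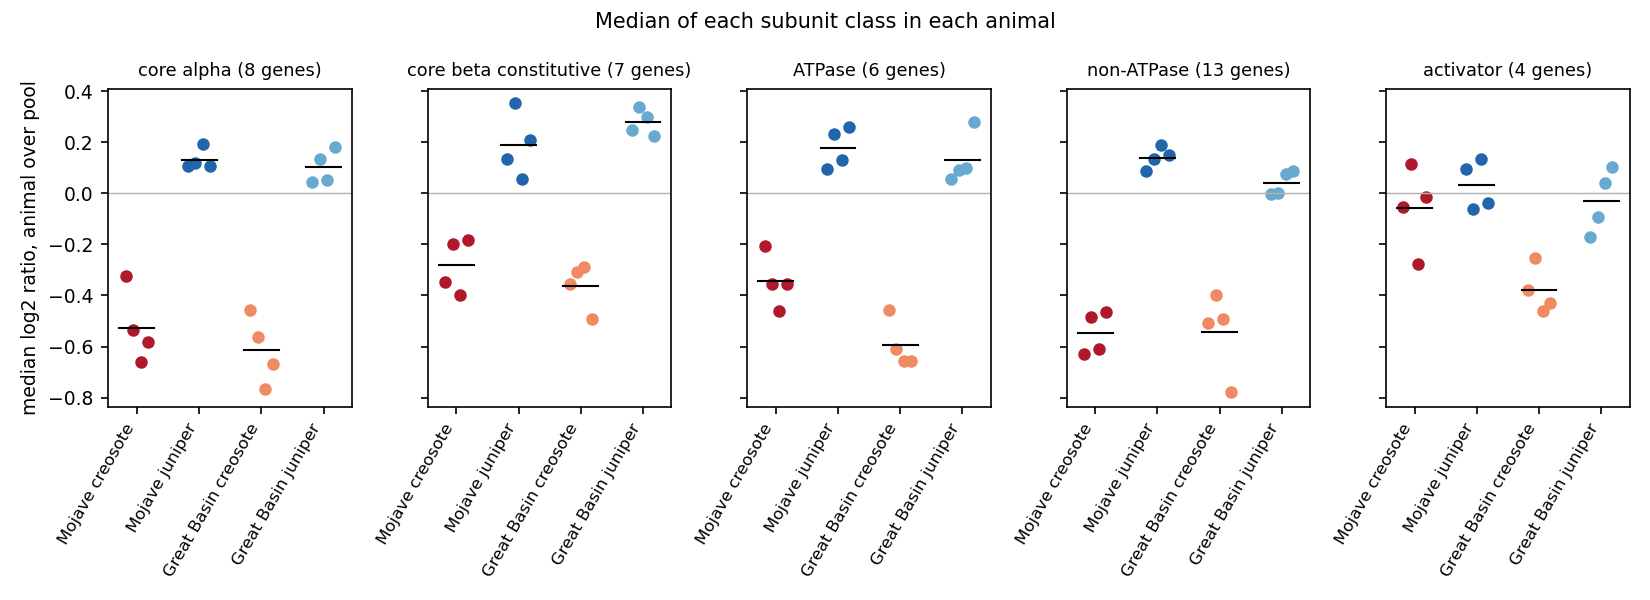
Median log2 ratio of animal over pool over the genes of a class, in each animal; black lines are means of the 4 animals of a group. In the alpha, constitutive beta, ATPase and non-ATPase classes every creosote animal lies below every juniper animal of both populations, while among the activators the Mojave groups overlap.

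Psmc3ip, the gene that matched by name only, was the single member higher on creosote. It had 0.70, 0.41, 0.29 and 1.20 in Mojave creosote animals, against 0.06, -0.67, 0.61 and 0.13 in Mojave juniper animals. For Great Basin animals the ratios were 0.08, -0.09, 0.52 and 0.45 on creosote, against -0.56, -0.38, -0.79 and -0.92 on juniper. The groups overlapped in Mojave and not in Great Basin, and the differences were 0.87 ± 0.20 (limma adjusted p = 0.0118) and 0.90 ± 0.18 (adjusted p = 0.0113). The Mojave call was lost without Mojave juniper animal 2 (adjusted p = 0.0698).

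The populations were then compared on the same diet, where they also differed in slide position. On creosote 0 of the 41 genes differed between Mojave and Great Basin animals (limma), against 21 of all genes (0.0793%), and 8 of 41 had an unadjusted p under 0.05, against 14.1% of all genes. On juniper 0 of 41 differed, against 3 of all genes (0.0113%), and 4 of 41 had an unadjusted p under 0.05, against 8.05%. The median difference over the 41 genes, Mojave minus Great Basin, was 0.09 on creosote and 0.05 on juniper. The smallest adjusted p on creosote was that of Psmb7, which was higher in Mojave animals by 0.44 ± 0.10 (adjusted p = 0.0989), with no overlap between the populations.

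The diet falls of the populations were compared by the interaction of population and diet. The interaction was called for 0 of the 41 genes (limma) and for 0 of all 26496 genes (0%), and 6 of 41 had an unadjusted p under 0.05, against 13% of all genes. The median of the interaction over the 41 genes was 0.06. The genes called in 1 population only (Psmd5 and Psmd6 in Mojave, Psma3l, Psmb1, Psmb7, Psmc1, Psmc3 and Psmc5 in Great Basin) are therefore not shown to differ between populations. The median standard error of the interaction over all genes was 0.13, against 0.10 and 0.09 for the diet differences. Without Great Basin creosote animal 4, the interaction was called for Psma6, Psmb7 and Psmd13, against 1.26% of all genes, and the population difference on creosote for Psmb7 and Psmd13, against 1.8%. Without Mojave creosote animal 3, the population difference on creosote was called for Psmb7 alone among the members, against 0.921% of all genes. When the arrays were centred on their median without the loess step, the interaction was called for 8 of the 41 genes, against 9.17% of all genes, and the population difference on creosote for 6, against 11.8%. That scaling also moved the median Mojave diet difference of the 1039 bright genes to -0.45, where that of the 41 genes was -1.02. Of the 41 genes, 29 are among the bright ones. The cause of this shift was not tested. The sex term was called for 0 of the 41 genes (limma) and for 1 of all genes (0.00377%), and 2 of 41 had an unadjusted p under 0.05, against 4.37%.

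**Figure D4:**
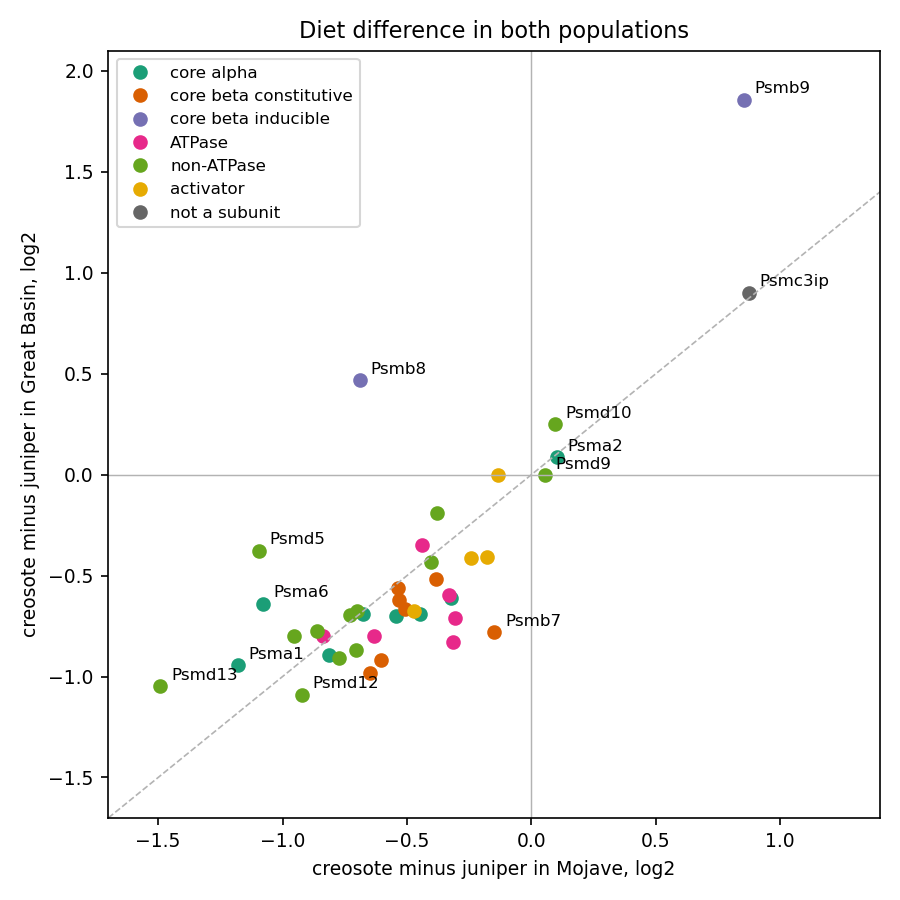
Difference between creosote and juniper in Mojave (horizontal) against that in Great Basin (vertical), both as log2 differences, 1 point for each of the 41 genes and coloured by role; the dashed line marks equal differences. Most points cluster in the lower left, with Psmb9, Psmb8 and Psmc3ip apart. The axes share no animal but share the sex term and the estimate of the spread.

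Other genes of the ubiquitin-proteasome pathway moved in part with the subunits. Of 12 measured proteins that bind the proteasome or carry substrates to it, 6 were lower and 1 higher on creosote in Mojave (median -0.36). In Great Basin 5 were lower and 0 higher (median -0.33). Over all genes 5.73% were called lower in Mojave and 1.92% in Great Basin. Each of the 12 that was called lower had a mean log2 brightness of 13 or more, and the others lay below 13. Among all genes that bright, 16.4% were called lower in Mojave and 12.5% in Great Basin. Txnl1, a thioredoxin-like protein bound to the regulatory particle, was at -0.91 ± 0.12 in Mojave and -1.08 ± 0.11 in Great Basin (limma adjusted p = 0.000619 and 0.0001). Ubqln1, a shuttle factor, was at -0.97 ± 0.11 and -0.83 ± 0.10, and Rad23b, another shuttle, at -0.77 ± 0.12 and -0.51 ± 0.11. Vcp, the ATPase that extracts ubiquitinated proteins, was at -0.82 ± 0.14 and -0.66 ± 0.13, and the deubiquitinase Usp14 at -0.68 ± 0.15 and -0.64 ± 0.15, all called. These falls lie within the range of those of the called subunits.

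The cofactors of Vcp lay on both sides of 0. Nsfl1c was called lower in Mojave at -0.45 ± 0.13 (limma adjusted p = 0.0395) and was at -0.42 ± 0.12 in Great Basin (adjusted p = 0.0656). Nploc4 was higher on creosote in Mojave at 1.69 ± 0.34 (adjusted p = 0.00559) and was at 0.25 ± 0.31 in Great Basin (adjusted p = 0.759), where the difference between populations did not pass the test (adjusted p = 0.191). Of the genes that code for ubiquitin, Ubb was at -0.23 ± 0.13 in Mojave and 0.01 ± 0.12 in Great Basin, and Rps27a at 0.15 ± 0.22 and -0.02 ± 0.21, none of them called.

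Of 4 measured regulators, 1 was called in each population, where 5.73% of all genes were called lower in Mojave and 1.92% in Great Basin. Nfe2l1, the transcription factor known in mammals to drive proteasome genes when proteasome activity is short, was lower on creosote at -1.14 ± 0.14 in Mojave (limma adjusted p = 0.000326) and -0.80 ± 0.13 in Great Basin (adjusted p = 0.00264). In Mojave only Psma1 and Psmd13 among the 41 proteasome genes had a larger fall. In Great Basin more of them did: Psma1, Psma5, Psmb3, Psmb6, Psmc1, Psmd1, Psmd4, Psmd12 and Psmd13. Of the core assembly chaperones 2 were measured and 0 called. Dscr2 was at 0.26 in Mojave and 0.15 in Great Basin, with all creosote animals above all juniper animals in both populations. That order held for 7.35% and 5.05% of all genes. The groups of the other, Tnfsf5ip1, overlapped in both populations. Of 6 peptide loading genes 0 were called in either population.

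**Figure D5:**
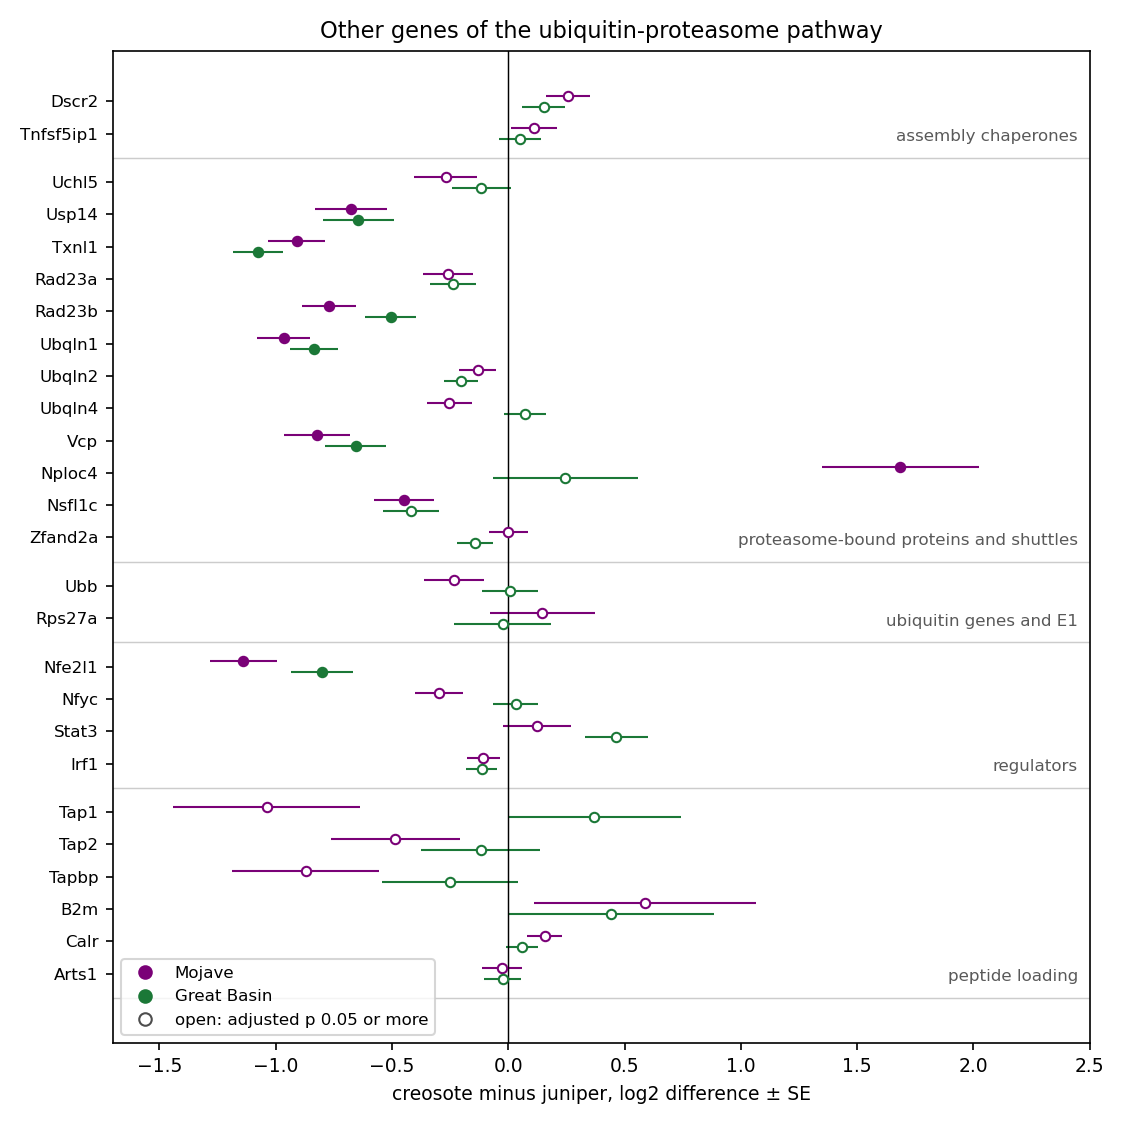
Difference between creosote and juniper for measured genes of the pathway lists, as a log2 difference with its standard error, in Mojave (purple) and Great Basin (green); filled points passed the adjusted p threshold of 0.05. Every filled point lies left of 0 except that of Nploc4 in Mojave at 1.69, and Ubb and Rps27a lie between -0.23 and 0.15.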

How the data were processed

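The deposited scanner files hold the mean signal and median background of each spot in both dyes as linear intensity, written by Agilent Feature Extraction 9.1.3.1, per the submitters' processing notes. The deposited log10 ratios of red over green come from the software's processed signals, per the file headers. The deposited series values are log2 ratios, which differed by at most 5e-10 from the log2 of processed red over processed green, animal over pool, with no further centring.

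From the mean and background signals, log2 ratios were computed with limma 3.58.1 under R 4.3.3. Normexp (offset 50) took out the background and loess normalised within arrays; in the loess fit the 1639 control spots and the outlier spots had no weight. Outlier spots were left out and replicate spots of a probe averaged, of 45018 spots per array. Probes stayed in the analysis if 4 or more of the 16 arrays called their red channel well above background and every group held at least 2 values, the second condition being added after seeing the data so that every contrast could be estimated. The brightest kept probe stood for a gene. That condition replaced the brightest Psmd2 probe, which had values on 5 arrays, by the other. For 6 members with several kept probes the other probes are given where they differ.

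All 16 arrays entered 1 limma model, with a mean for each of the 4 groups and sex as an additive term (residual degrees of freedom 11, prior degrees of freedom 4.02). Tests were two-sided with Benjamini-Hochberg adjustment over 26496 genes and a threshold of 0.05. Values of further probes of a gene come from a separate fit of all 30122 kept probes, with adjustment over those. Fits that leave out an animal, a slide or the females, and fits with other scalings, are compared in the closing section. An animal that has no value for a gene is dropped from that gene's fit. Precision is limited by the number of arrays.

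The members and lists were chosen with earlier results of these data known. Values in every animal are given for the 2 members of each class with the smallest p in each diet comparison, the catalytic subunits, the activators, members called against their class, and members whose probes differ in sign or by over 0.5 log2. Of the pathway genes, the called ones and 2 ubiquitin genes are named; some pathway genes are not reported here. Gene names are those of the array design. The array carries rat probes, which were not matched to woodrat transcripts here.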

Additional observations from a re-analysis of the deposited data

Results flagged for a closer look

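In 171 sets of 4 animals (a member or class in a group), the most extreme animal was tested for its gap to the next by Dixon's criterion, which chance passes in about 1 of 20 sets. It was passed in 8. Psmb9 had 1 animal far above the others in both Mojave groups, at 1.17 on creosote against -2.30 for the next animal, and at 0.24 on juniper against -2.52 for the next. In Mojave creosote, Psmc6 was high in animal 1, at 0.36 against -0.29 for the next, Psmd3 was low in the same animal, at -1.03 against -0.59, and Psma5 was low in animal 3, at -0.87 against -0.60. In Great Basin creosote, Psmc2 was low in animal 3, at -0.95 against -0.68, and Psme1 was high in animal 2, at 0.16 against -0.40. The median of the alpha subunits was high in Mojave juniper animal 3, at 0.19 against 0.12 for the next.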

How the results depend on the processing

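Both diet differences kept their direction in every alternative tried, with 14 to 35 of 41 genes called lower in Mojave and 9 to 30 in Great Basin. Over all genes tested, 2.42% to 15.5% were called lower in Mojave and 0.238% to 3.52% in Great Basin. The low ends came from male animals only, with 14 and 9 called lower and a Mojave median of -0.47; fewer animals were fitted there. With arrays median-centred and no loess, 35 and 20 were called lower, against 15.5% and 1.59% of all genes. The medians were -1.02 in Mojave, -0.55 in Great Basin, -0.31 between populations on creosote, 0.21 on juniper and -0.48 for the interaction. Calls were 6 on creosote and 8 for the interaction, against 11.8% and 9.17% of all genes. The share of all calls that were lower was 86.3% in Mojave and 36.5% in Great Basin, against 60% and 48.2% after loess. The Cy5 channel alone gave medians of -0.66, -0.62, 0.0343 (populations on creosote) and -0.0813 (interaction). The deposited ratios moved the Great Basin median to -0.60, and the mean over probes moved it to -0.61. With the deposited ratios, 20 genes were called lower in Mojave and 22 in Great Basin, against 3.46% and 1.39% of all genes. The lower calls lost there were those of Psma3, Psmb3, Psmd6, Psmd8 and Psme4 in Mojave. In Great Basin they were those of Psma3, Psmb1, Psmb4, Psmc3, Psmc5, Psmd1 and Psmd8. Without a sex term the Mojave median was -0.46. Without slide 1 it was -0.46, with 0.17 for populations on creosote and 0.15 for the interaction. Among males the median between populations on juniper was -0.0184. The cause of these shifts was not tested. The 1 gene called higher, Psmc3ip, was not called (0 genes) in Mojave under median centring, without a sex term and among males, nor in Great Basin among males and without slide 1. Leaving out 1 animal at a time gave 21 to 25 lower calls in Mojave and 25 to 30 in Great Basin. Over all genes 3.73% to 6.33% and 1.17% to 2.19% were called lower in those fits. They gave 0 to 1 higher calls in Mojave and medians of -0.57 to -0.48 and -0.71 to -0.62. Between populations on creosote they gave 0 to 2 calls and a median of 0.0638 to 0.142. For the interaction they gave 0 to 3 calls. Of the genes called lower, 20 of 25 in Mojave and 24 of 29 in Great Basin kept the call in all 16 such fits. The replicate numbers did not pair animals (median correlation of same-numbered animals -0.03, from -0.17 to 0.14). With a replicate block 23 and 28 were called lower, against 5.59% and 1.68% of all genes. Dim probes limit what can be said of Psma2, Psmd9 and Psmd10.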
